A study of Mus musculus with 20 samples.

Results

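Dcx, Dlx1, Dlx2, Dlx5, Dlx6, Sp8, Sp9, Gad1 and Gad2 are 9 genes that mark the path from a dividing cell of the subventricular zone (SVZ) to a migrating neuroblast and a GABAergic interneuron. They were taken by gene symbol from the table of RPKM values (a read level corrected for gene length and library depth). Each symbol matched 1 of the 45705 genes listed, and all 9 were among the 27614 genes that reached 1 RPKM in at least 4 libraries and entered the tests.

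The cells came from the periventricular tissue of Swiss Webster mouse pups at postnatal day 5, for which no transgene and no treatment is named. Pups of both sexes were pooled by litter, so that a library describes a pool and not 1 animal. Cells were sorted for CD133, CD15, CD140a and NG2 into neural stem cells (NSC), defined by CD133 and CD15 without CD140a or NG2, and into progenitors. The progenitors are BNAP/GRP1, GRP2/MP3, GRP3 and PFMP. Their names refer to the cell types they formed in culture and, for PFMP, also to a response to the growth factors PDGF and FGF. There were 5 populations and 4 batches, with 1 library of each population in each batch (20 libraries, n = 4 per population).

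In the postnatal SVZ, stem cells give rise to transit amplifying cells and these to neuroblasts, which migrate to the olfactory bulb and become mostly GABAergic interneurons. The DLX homeodomain factors are switched on as cells enter that lineage, and SP8 and SP9 are zinc finger factors used by overlapping sets of the same neurons. DCX is a microtubule-associated protein of migrating neuroblasts, and GAD1 and GAD2 are the enzymes that make GABA from glutamate.

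On the GRCm38 build, 5 of the 9 genes lie on chromosome 2. Dlx1 (chr2:71528113-71533981, plus strand) and Dlx2 (chr2:71543408-71546754, minus strand) form a pair of converging genes with 9426 bases between them, with Gad1 at chr2:70553072-70602014, Sp9 at chr2:73271925-73284706 and Gad2 at chr2:22622205-22693874. Dlx6 (chr6:6863334-6868568, plus strand) and Dlx5 (chr6:6877805-6882085, minus strand) form the other such pair, 9236 bases apart. Sp8 lies at chr12:118846329-118852576 and Dcx at chrX:143855842-143933311. Antisense transcripts overlap Dlx1 (Dlx1as, over 335 exonic bases) and Dlx6 (Dlx6os2, over 104), and Sp9 shares 270 exonic bases with Cir1 on the other strand. Whether reads were counted by strand is not given in the sources used here, so reads from such partners cannot be told apart over those bases.

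The stretches just upstream of Dlx2, Sp9 and Sp8 are shown because single libraries of these genes stood far above the rest of their population. Of the 9 genes, 7 were matched in the sequence table. Dlx6, which also had such a library, was not matched. Dlx1, which had a library far below the rest of its population, was matched but is not shown. The sequences are the 250 bases before a RefSeq start on GRCm38.p6, at chr2:71546755-71547004 on the minus strand for Dlx2, chr2:73271676-73271925 on the plus strand for Sp9 and chr12:118846983-118847232 on the plus strand for Sp8. Capitals mark a GC box (GGGCGG) or a CCAAT box (CCAAT), each read on either strand.
Dlx2: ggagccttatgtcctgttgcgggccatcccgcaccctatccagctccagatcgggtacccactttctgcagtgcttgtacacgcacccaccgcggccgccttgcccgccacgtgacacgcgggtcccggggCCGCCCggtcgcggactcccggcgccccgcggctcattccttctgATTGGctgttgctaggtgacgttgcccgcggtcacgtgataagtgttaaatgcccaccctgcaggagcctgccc
Sp9: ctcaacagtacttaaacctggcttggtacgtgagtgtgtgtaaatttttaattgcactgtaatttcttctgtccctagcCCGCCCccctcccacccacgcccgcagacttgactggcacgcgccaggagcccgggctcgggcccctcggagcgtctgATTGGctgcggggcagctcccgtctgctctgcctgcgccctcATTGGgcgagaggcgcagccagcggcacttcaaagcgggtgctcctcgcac
Sp8: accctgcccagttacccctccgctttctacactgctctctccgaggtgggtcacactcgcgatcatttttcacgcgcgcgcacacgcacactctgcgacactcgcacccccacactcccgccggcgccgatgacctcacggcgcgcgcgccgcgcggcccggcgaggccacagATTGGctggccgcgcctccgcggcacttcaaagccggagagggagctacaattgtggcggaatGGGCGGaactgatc
The 3 windows held 66.4%, 62.4% and 67.2% G and C, against a median of 52.4% over 32851 windows of the same length. Each held both boxes, which were present in 32.7% (GC box) and 33.8% (CCAAT box) of all windows. The Dlx1 window, at chr2:71529195-71529444 on the plus strand, held 68% G and C and neither box. The boxes are thus not a trait of all genes with an outlying library. A homeodomain core, TAATTA, was in none of these 3 windows and in 4.84% of all. The Sp8 window shown lies inside the Sp8 gene span given above. Sp8 has 2 other RefSeq starts, and their windows, not shown, differ. That at chr12:118846079-118846328, which ends just before the gene span, held 40.8% G and C and no GC box. That at chr12:118847309-118847558 held 50% G and C and TAATTA.

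Batch 3 stood apart from the other batches in all 5 populations. The RPKM of 6 erythroid genes summed to 228440 to 252653 in its libraries and to 11.55 to 26515 in the others. The 8 microglial markers summed to 503 to 597 RPKM in each library of batch 3, NSC included. In batch 3 the sums of 8 OPC markers were 16.8 RPKM or less and those of 8 mature neuron markers 4.63 RPKM or less. Relative depth, read from the steps between low values and set to 1 in BNAP/GRP1 of batch 1, ran from 0.0395 (BNAP/GRP1, batch 4) to 1.41 (BNAP/GRP1, batch 3). Values are therefore given in the order of batches 1, 2, 3 and 4 throughout, and the tests against NSC are given with and without batch 3. In sorted pools, fewer cells of a type and less RNA per cell cannot be told apart.

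Each of the 9 genes had a higher mean log2(RPKM + 1) in each of the 4 progenitors than in NSC (in GRP3 with a pseudocount of 0.1, 7 of the 9 were), but none passed the test across all genes. In BNAP/GRP1 the median log2 fold change of the 9 was 1.25 and that of all genes tested 0.38. The medians were 1.05 and -0.08 in GRP2/MP3, 0.33 and 0.05 in GRP3, and 1.10 and -0.20 in PFMP. By limma with Benjamini-Hochberg adjustment over all genes, 0 of 9 passed 0.05 in any of the 4 comparisons with NSC, and 1 (Dcx in PFMP) had an unadjusted p under 0.05. Few genes of the table passed this test. The share called higher was 0% for BNAP/GRP1 and 0% for GRP2/MP3, and it was 0.0109% for GRP3 and 0.00362% for PFMP. With the 4 progenitors joined, 0 of 9 passed, against 0.0217% of all genes. The test for any difference among the 5 populations called 0 of 9, with 0 at an unadjusted p under 0.05, against 0.786% of all genes. The 4 comparisons share the NSC libraries, so their results are not independent.

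**Figure D1:**
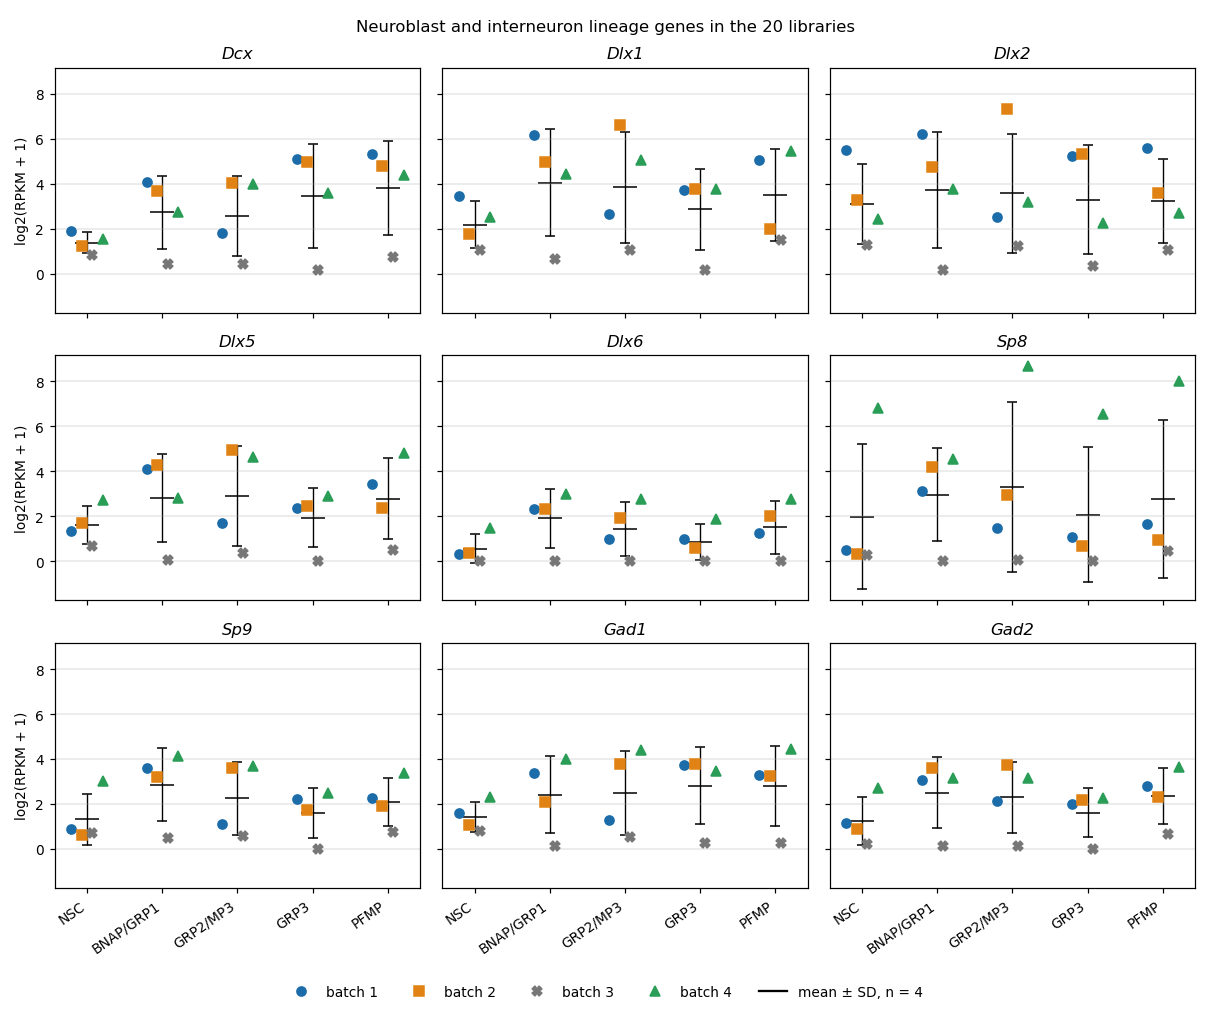
Level of each gene, log2(RPKM + 1), in the 20 libraries; x, the 5 populations; symbols, the 4 batches; black, mean ± SD over the 4 libraries of a population. The libraries of batch 3 (grey crosses) reached no more than 1.85 RPKM for any gene, and Sp8 stood at 22.3 to 408 RPKM in batch 4 (green triangles).

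The labels give each library a batch number, and with batch as a replicate block 0 of 9 genes passed in every comparison with NSC. The background under the block was 0.0652% called higher for BNAP/GRP1 and 0.174% for GRP2/MP3. It was 0.275% for GRP3, 0.185% for PFMP and 0.225% with the progenitors together. Dcx came nearest, with adjusted p = 0.0531 in PFMP and 0.0647 for the progenitors together. BNAP/GRP1 and PFMP each had 4 of the 9 genes at an unadjusted p under 0.05, GRP3 had 2 (Dcx and Gad1) and GRP2/MP3 had 1 (Gad2), all higher than NSC. The shares of all genes higher at that unadjusted p were 7.31% for BNAP/GRP1, 3.14% for PFMP, 4.16% for GRP3 and 3% for GRP2/MP3.

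Dcx had the largest fold change against NSC of the 9 genes in GRP3 and PFMP. In NSC it stood at 2.74, 1.34, 0.802 and 1.96 RPKM. In PFMP it stood at 39.1, 26.4, 0.677 and 20.002 RPKM, and in GRP3 at 33.2, 30.7, 0.124 and 10.9 RPKM. Outside batch 3 all 3 libraries of either population lay above all 3 NSC libraries, by 5.55-fold to 22.9-fold within a batch, whereas in batch 3 both lay below NSC. BNAP/GRP1 gave 15.8, 11.8, 0.367 and 5.76 RPKM and also lay above NSC outside batch 3. GRP2/MP3 gave 2.56, 15.6, 0.332 and 14.7 RPKM, and its library of batch 1 fell within the NSC range.

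The log2 fold change of Dcx was 2.42 ± 1.14 (SE) in PFMP (adjusted p = 0.815) and 2.07 ± 1.14 in GRP3 (adjusted p = 1). Without batch 3 it was 3.27 ± 0.69 in PFMP (adjusted p = 0.022), 2.98 ± 0.69 in GRP3 (adjusted p = 0.0388) and 2.48 ± 0.55 for the progenitors together (adjusted p = 0.0204), and Dcx was then the only 1 of the 9 to pass in each of these. The share of all genes called higher without batch 3 was 0.228% in PFMP, 0.315% in GRP3 and 0.177% for the progenitors together. In BNAP/GRP1 and GRP2/MP3 0 of 9 passed without batch 3, against 0.116% and 0.297% of all genes. With batch 3 kept, Dcx also passed in GRP3 with library weights (adjusted p = 0.00372) and in PFMP with the replicate block and median-of-ratios scaling (adjusted p = 0.0427).

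Sums of cell type markers also set GRP3 and PFMP apart from NSC. Outside batch 3 the 8 OPC markers summed to 849 to 3728 RPKM in GRP3 and 422 to 2761 in PFMP, against 40.1 to 80.9 in NSC, where 4 to 8 of the 8 reached 1 RPKM. The 8 include Pdgfra and Cspg4, which encode the sorting antigens CD140a and NG2. The NSC gate excluded cells with either antigen, so the difference in those genes is not independent of the sort. The 8 mature neuron markers summed to 57.1 to 110 RPKM in GRP3 and 111 to 158 in PFMP, against 18.1 to 37.3 in NSC. Ependymal markers ran the other way, with 3856 to 17247 RPKM in NSC and no more than 78.9 in PFMP and GRP3. The part of the cell types so marked in the Dcx values was not tested.

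The DLX genes, which encode the homeodomain factors of the GABAergic lineage, were highest in BNAP/GRP1 in batch 1 and, other than Dlx6, in GRP2/MP3 in batch 2. In batch 4 PFMP was highest for Dlx1 and Dlx5 and BNAP/GRP1 for Dlx2 and Dlx6, and in batch 3 NSC was highest for all but Dlx1, for which it was PFMP. Dlx1 stood at 9.92, 2.40, 1.06 and 4.71 RPKM in NSC and at 71.1, 30.7, 0.554 and 20.7 RPKM in BNAP/GRP1. Outside batch 3, all 3 BNAP/GRP1 libraries lay above all 3 of NSC, and the log2 fold change over 4 batches was 1.87 ± 1.28 (adjusted p = 0.866). In GRP2/MP3 Dlx1 ran from 1.05 RPKM in batch 3 and 5.41 in batch 1 to 32.4 in batch 4 and 97.1 in batch 2. The groups thus overlapped, since batch 1 of GRP2/MP3 lay below batch 1 of NSC. GRP3 gave 12.2, 12.8, 0.138 and 12.7 RPKM, and PFMP gave 32.7, 3.00, 1.85 and 43.3 RPKM. In every batch PFMP lay above NSC.

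Dlx2, the partner of Dlx1 on chromosome 2, differed less from NSC than any of the other 8 genes in BNAP/GRP1, GRP2/MP3 and PFMP. NSC gave 44.0, 8.71, 1.41 and 4.33 RPKM, so that the NSC library of batch 1 exceeded 13 of the 16 progenitor libraries. BNAP/GRP1 gave 72.6, 25.7, 0.123 and 12.8 RPKM, and GRP2/MP3 gave 4.68, 161, 1.37 and 8.25 RPKM. Both groups overlapped NSC. GRP3 (36.5, 39.8, 0.259 and 3.84 RPKM) and PFMP (46.7, 11.1, 1.10 and 5.48 RPKM) also overlapped it. The log2 fold changes of Dlx2 lay between 0.12 (PFMP) and 0.61 (BNAP/GRP1), each with an SE of 1.44.

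Dlx5 and Dlx6, the pair on chromosome 6, were highest in batch 4 among the NSC libraries. Dlx5 ranged from 0.590 to 5.55 RPKM in NSC, and outside batch 3 from 4.15 to 27.2 in PFMP, 4.204 to 6.55 in GRP3, 2.22 to 29.7 in GRP2/MP3 and 6.12 to 18.3 in BNAP/GRP1. The 3 BNAP/GRP1 libraries were above all 3 of NSC, and those of the other progenitors were not. Dlx6 was the lowest of the 9 by mean RPKM, at 0.0190 to 1.82 in NSC and at 3.98 to 7.08 in BNAP/GRP1 outside batch 3. In batch 3 Dlx6 was listed at 0 in BNAP/GRP1, GRP2/MP3 and GRP3, where 3 reads would be worth at most 0.0256 RPKM. In BNAP/GRP1 Dlx6 differed from NSC by 1.36 ± 0.76 on the log2 scale (adjusted p = 0.866), and the replicate block gave adjusted p = 0.137.

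Sp8 differed more between batches than between populations. Outside batch 4 it reached 0.415 RPKM in NSC, 1.14 in GRP3, 2.15 in PFMP, 6.75 in GRP2/MP3 and 17.3 in BNAP/GRP1. In batch 4 it stood at 408 RPKM in GRP2/MP3, 256 in PFMP, 111 in NSC, 92.0 in GRP3 and 22.3 in BNAP/GRP1. Every batch 4 library was thus above every other library of its population. BNAP/GRP1 was the highest in batches 1 and 2 and the lowest in batch 4. Batch held 83.8% of the sum of squares of Sp8 and population 3.33%. The log2 fold changes against NSC lay between 0.09 in GRP3 and 1.31 in GRP2/MP3, each ± 1.97.

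Sp9, its relative on chromosome 2, was high in batch 4 of NSC alone among the NSC libraries, at 0.871, 0.535, 0.650 and 7.12 RPKM. BNAP/GRP1 gave 11.3, 8.27, 0.393 and 16.3 RPKM, and its log2 fold change of 1.54 ± 0.92 (adjusted p = 0.866) was the second largest in that population after Dlx1. All 3 BNAP/GRP1 libraries outside batch 3 lay above all 3 of NSC. GRP2/MP3 gave 1.14, 11.1, 0.504 and 11.97 RPKM, GRP3 gave 3.60, 2.34, 0 and 4.64, and PFMP gave 3.81, 2.78, 0.690 and 9.29. Outside batch 3, GRP2/MP3, GRP3 and PFMP each overlapped NSC through the NSC library of batch 4.

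The GABA enzymes differed in which progenitor was highest. Gad1 stood at 2.00, 1.11, 0.721 and 3.96 RPKM in NSC, at 12.4, 12.8, 0.198 and 10.1 in GRP3, and at 8.80, 8.49, 0.192 and 20.5 in PFMP. Both progenitors lay above NSC in every library outside batch 3, and both lay below it in batch 3. BNAP/GRP1 gave 9.35, 3.19, 0.104 and 15.2 RPKM and GRP2/MP3 gave 1.44, 12.5, 0.451 and 19.8, and each had 1 library within the NSC range, besides that of batch 3, which lay below it. The log2 fold change of Gad1 was 1.38 ± 1.06 in GRP3 and 1.37 ± 1.06 in PFMP (adjusted p = 1 in both). Gad2 ranged from 0.173 to 5.60 RPKM in NSC and, outside batch 3, from 3.93 to 11.4 in PFMP, 3.00 to 3.76 in GRP3, 3.41 to 12.5 in GRP2/MP3 and 7.48 to 11.04 in BNAP/GRP1. It was separated from NSC in those 3 batches in BNAP/GRP1 alone, with a log2 fold change of 1.25 ± 0.91 (adjusted p = 0.866).

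Within batches 1, 2 and 4 the progenitors were mostly above the NSC library of their own batch. In each of those 3 batches the progenitor was higher for 9 of 9 genes in PFMP, where this held for 12.7% of all genes tested. It was higher for 8 of 9 in BNAP/GRP1 (all but Sp8), where 24.6% of all genes did so. In GRP2/MP3 5 of 9 were higher (Dlx5, Dlx6, Sp8, Sp9 and Gad2), against 8.55% of all genes, and in GRP3 5 of 9 (Dcx, Dlx1, Dlx5, Dlx6 and Gad1), against 21.5%. Full separation of the 3 progenitor libraries from the 3 of NSC was met by 6 of 9 in BNAP/GRP1 (Dcx, Dlx1, Dlx5, Dlx6, Sp9 and Gad2), by 3 in GRP3 (Dcx, Dlx1 and Gad1), by 2 in PFMP (Dcx and Gad1) and by 0 in GRP2/MP3. The shares of all genes were 4.96%, 8.81%, 4.58% and 3.75%. BNAP/GRP1 of batch 4 had the lowest relative depth, 0.0395, and 75.7% of all genes there lay above NSC. By rank within a library (percent of genes with a lower RPKM), Dcx stood at 33.1 there and at 56.8 in NSC of batch 4. Dlx5 stood at 35.4 and 76.7, Dlx6 at 41.8 and 54.4, and Gad2 at 47.3 and 76.8. Dlx1 ranked higher than in NSC, at 84.9 and 74.8, and Sp9 stood at 79.3 in both.

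Batch 3 reversed this. There 0 of 9 genes were above NSC in BNAP/GRP1, GRP2/MP3 or GRP3, and 4 were above it in PFMP (Dlx1, Sp8, Sp9 and Gad2). In that batch the shares of all genes above NSC were 31.8%, 30.7%, 31.8% and 32.3% in the order BNAP/GRP1, GRP2/MP3, GRP3, PFMP. A higher level in all 4 batches was therefore met by 0 of 9 in BNAP/GRP1, GRP2/MP3 and GRP3, against 9.35%, 4.76% and 8.31% of all genes, and by those 4 in PFMP, against 5.75%. The median difference of the 9 from NSC was 2.16, 2.55, -0.40 and 1.19 on the log2 scale in BNAP/GRP1, and 1.62, 1.30, -0.00043 and 1.28 in PFMP. It was 0.19, 2.88, -0.13 and 1.87 in GRP2/MP3, and 0.85, 1.32, -0.67 and 0.20 in GRP3. In batch 4 the median of all genes moved as well, by 1.53 in BNAP/GRP1 and by -0.88 in PFMP, so that the median of the 9 was above that shift in PFMP and below it in BNAP/GRP1.

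**Figure D2:**
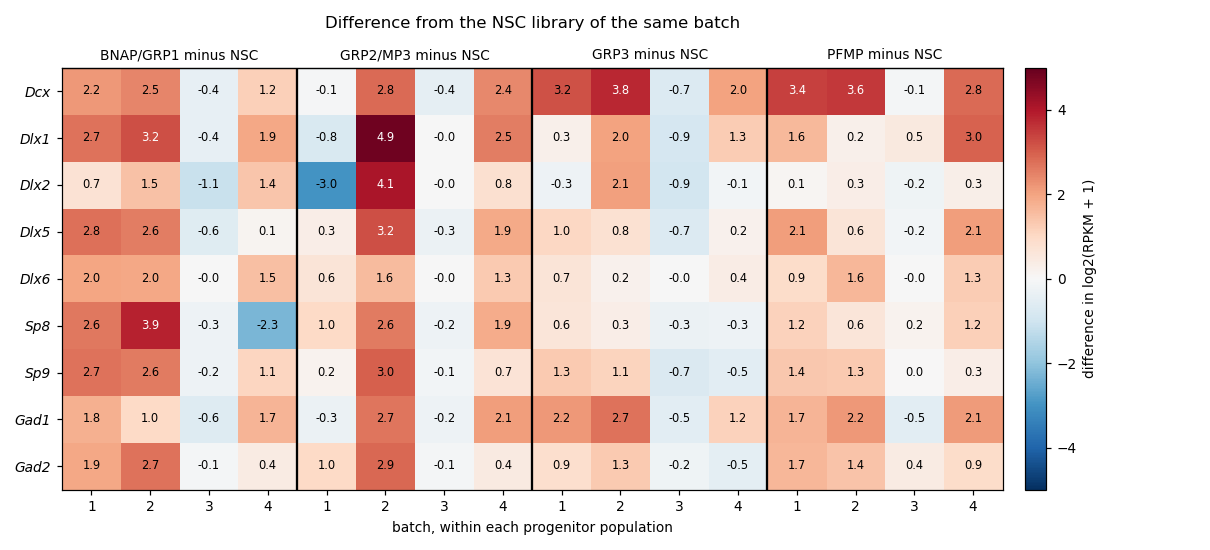
Difference in log2(RPKM + 1) between each progenitor library and the NSC library of the same batch; rows, the 9 genes; columns, batches 1 to 4 within each progenitor; red, higher than NSC; blue, lower. Batch 2 is above 0 for every gene and progenitor, and batch 3 is at or near 0 or below it, from -1.10 (Dlx2 in BNAP/GRP1) to 0.47 (Dlx1 in PFMP).

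Levels were lowest in batch 3 for 44 of the 45 pairs of a gene and a population, the exception being Sp9 in NSC. At least 1 RPKM was reached in 6 of 45 values of batch 3, with 1.85 RPKM (Dlx1 in PFMP) the highest, and in 124 of 135 values of the other batches. The summed level of the 9 genes was 0.719 to 5.92 RPKM in batch 3 and 17.8 to 533 RPKM in the other batches. The test for any difference among the 4 batches called 9 of 9 genes, with adjusted p from 4.37e-06 (Sp8) to 0.00238 (Dlx1), where 59.8% of all genes were called. Without batch 3 it called 1 of 9, Sp8 (adjusted p = 0.000648), where 20.6% of all genes were called.

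Batch held 56.0% (Dlx1) to 83.8% (Sp8) of the sum of squares of the 9 genes, and population 1.28% (Dlx2) to 23.1% (Dcx). The medians over all genes tested were 43.9% for batch and 14.3% for population. The share held by batch was above that median for each of the 9 genes, and the share held by population was above it for Dcx, Dlx6, Sp9 and Gad2.

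**Figure D3:**
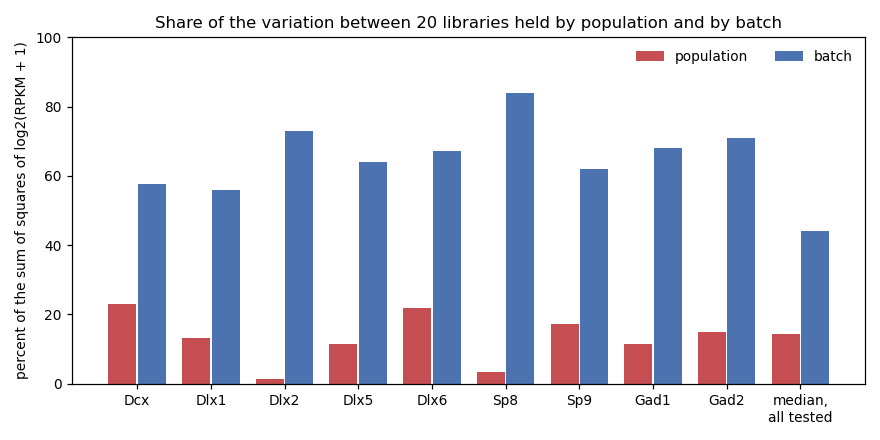
Percent of the sum of squares of log2(RPKM + 1) over 20 libraries held by population (red) and by batch (blue) for each gene, with the median of all genes tested at the right. Batch exceeded population for each gene, from 56.0% against 13.3% for Dlx1 to 83.8% against 3.33% for Sp8.

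The progenitors were also compared with each other. None of the 9 genes passed in any of the 6 direct comparisons, in which 0% of all genes were called by limma. At an unadjusted p under 0.05, 79 genes were higher and 5 lower in GRP3 against PFMP, and 1260 were higher and 95 lower in BNAP/GRP1 against PFMP, the fewest and the most of the 6. None of the 9 was among them in any of the 6. By mean RPKM, Dcx was highest in PFMP (21.6 ± 16.02, SD, n = 4), followed by GRP3 (18.7 ± 15.9), BNAP/GRP1 (8.43 ± 6.77), GRP2/MP3 (8.31 ± 7.98) and NSC (1.71 ± 0.834). Neighbours in this order differed by less than the larger of their SDs. GRP2/MP3 had the highest mean of Dlx1, Dlx2, Dlx5 and Sp8, BNAP/GRP1 of Dlx6, Sp9 and Gad2, and PFMP of Gad1. Single libraries decided the GRP2/MP3 means. Without its batch 2 library they dropped from 43.9 to 4.77 RPKM for Dlx2, from 34.0 to 12.96 for Dlx1 and from 13.98 to 8.73 for Dlx5, and without its batch 4 library that of Sp8 dropped from 104 to 2.86. NSC had the lowest mean of each gene but Sp8, for which it was BNAP/GRP1. GRP3 lay below PFMP in all 4 batches for Dlx6, Sp8, Sp9 and Gad2, which 1.04% of all genes did. BNAP/GRP1 lay above GRP3 in all 4 batches for Dlx1, Sp9 and Gad2, against 6.09% of all genes. In batch 3 the values behind these differences were no more than 0.690 RPKM.

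The levels of the 9 genes were correlated over the libraries. The 36 pairs had a median Pearson r of 0.784 over 20 libraries, from 0.106 (Dlx2 with Sp8) to 0.956 (Dlx5 with Gad2). Without batch 3 the median was 0.599, with Dlx2 and Sp8 at -0.48, and with the mean of each batch removed it was 0.618. These are descriptions: libraries share a batch or a population and are not independent points.

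Among the other genes tested, the profiles most like the mean of the 9 included those of Sgol1 (r = 0.947), Dpysl5 (0.943), Aspm (0.941) and Dlx6os1 (0.938), over 20 libraries. Sgol1 and Aspm encode proteins of the dividing chromosome or spindle, Dpysl5 a protein of growing neurites and Dlx6os1 a transcript antisense to Dlx6. By single gene, the nearest profile was that of Etv1 for Dcx (0.970), Dpysl5 for Dlx1 (0.905), Insm1 for Dlx2 (0.966), Dlx6os1 for Dlx5 (0.941) and for Sp9 (0.935), Tbc1d16 for Dlx6 (0.934), AI593442 for Sp8 (0.949), Plxna2 for Gad1 (0.953) and Igfbpl1 for Gad2 (0.920). Without batch 3 the nearest profile stayed the same for Dcx, Dlx2, Dlx5 and Sp9 and was another for the other 5 genes, and Sgol1, Dpysl5 and Aspm were no longer among the 5 nearest to the mean of the 9. With the mean of each batch removed it stayed the same for Dlx2 and Dlx5 alone. The symbol Dlx6os1 occurs on more than 1 row of the table, and the row nearest to Dlx5 is ENSMUSG00000090063 and that nearest to Sp9 ENSMUSG00000098326.

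Genes known to act beside the 9 were read from 7 lists. In the main comparisons with NSC none of their tested genes passed, which were 10 other DLX, SP and overlapping transcripts, 25 other interneuron transcription factors, 30 genes of neuroblast migration and early neurites, 8 of GABA synthesis, transport and breakdown, 10 of interneuron subtypes, 11 of the glutamatergic lineage and 10 of transit amplifying cells. Their median log2 fold changes in PFMP were -0.11, 0.45, 0.92, 0.53, 0.09, 0.22 and 0.92, beside -0.20 for all genes and 1.10 for the 9. In GRP3 the same medians were 0.13, 0.38, 0.65, 0.46, -0.08, 0.19 and 0.70, so that 4 of the lists were above the 0.33 of the 9. In BNAP/GRP1 they ran from 0.25 (GABA) to 0.99 (glutamatergic), beside 1.25 for the 9, and in GRP2/MP3 from -0.24 (GABA) to 0.30 (transit amplifying), beside 1.05.

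With the replicate block some list genes passed. Etv1, a transcription factor of olfactory bulb interneurons among other cells, rose in GRP3 (log2 fold change 2.53, adjusted p = 0.0141) and PFMP (2.62, adjusted p = 0.0103). It stood at 3.89, 2.81, 0.759 and 3.21 RPKM in NSC and at 56.1, 30.5, 2.18 and 33.1 RPKM in PFMP, and it was above NSC in all 4 batches of each progenitor. Of the 30 neuroblast genes, Dpysl3 (3.29, adjusted p = 0.0206) and Stmn4 (2.87, adjusted p = 0.0406), which encode cytoskeletal regulators of growing neurites, rose in PFMP.

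Others fell under the block, where genes called lower were more frequent than genes called higher. The share of all genes called lower was 2.02% for BNAP/GRP1, 2.33% for GRP3, 2.61% for PFMP, 2.91% for GRP2/MP3 and 4.14% with the progenitors together. Emx1, a dorsal telencephalic homeodomain factor, was lower in each of the 4 progenitors, with log2 fold changes from -3.42 (GRP2/MP3, adjusted p = 0.0033) to -2.51 (BNAP/GRP1, adjusted p = 0.0463). Its levels were 31.0, 68.7, 1.49 and 21.6 RPKM in NSC and 2.14, 0.815, 0 and 4.63 in PFMP. Dlx4, another DLX gene, was lower in the progenitors together (-3.05, adjusted p = 0.0211), as were the neuroblast genes St8sia2 (-1.41), Cxcr4 (-1.93) and Cd24a (-1.89), the GABA transaminase Abat (-1.42) and the calcium-binding protein gene Calb1 (-1.67). Dab1, of the reelin pathway, was lower in GRP2/MP3 (-1.87). Mki67 (1.57, adjusted p = 0.0274) and Mcm5 (1.81, adjusted p = 0.0181), both genes of dividing cells, rose in the progenitors together.

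The most abundant list genes given here did not follow 1 pattern. Meis2, high in interneuron precursors, stood at 142, 109, 14.8 and 38.6 RPKM in NSC and at 79.5, 42.4, 2.48 and 69.0 in PFMP. Gap43, of growing axons, stood at 127, 74.6, 17.8 and 68.7 RPKM in NSC and at 1201, 1008, 22.5 and 1558 in PFMP. Log2 fold changes in PFMP, none past the threshold, were -0.17 for Sp3, -0.36 for Sp1, 0.83 for Neurod6, 0.68 for Cck, -1.48 for Btg2 and 1.24 for Ccnd2. Npy, a neuropeptide of some interneurons, was highest in batch 3, at 223 to 280 RPKM in its 5 libraries, where the 9 genes were lowest.

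**Figure D4:**
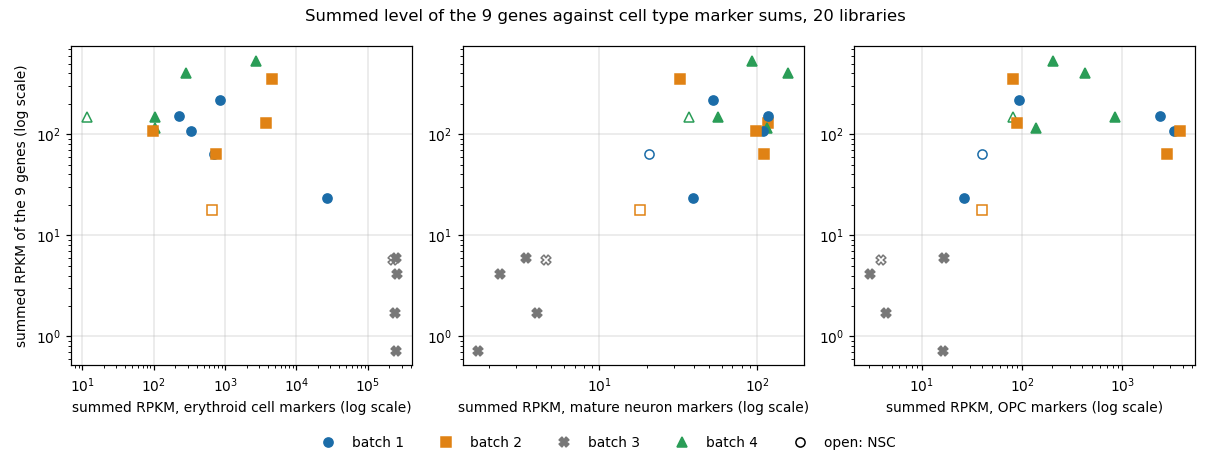
Summed RPKM of the 9 genes (y, log scale) against the summed RPKM of erythroid, mature neuron and OPC markers (x, log scale) in 20 libraries; symbols and colours, batches; open symbols, NSC. The batch 3 libraries, with sums of 0.719 to 5.92 RPKM for the 9 genes, lie at 228440 to 252653 RPKM of erythroid markers.

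Markers of other cells also set BNAP/GRP1 and GRP2/MP3 apart from NSC, but did not always rise with the 9 genes. In GRP2/MP3 the 9 genes summed to 23.6, 349 and 533 RPKM in batches 1, 2 and 4, and the microglial markers to 3302, 2573 and 622. In BNAP/GRP1 both sums fell in that order, the 9 genes from 216 to 114 RPKM and the microglial markers from 3101 to 113. Outside batch 3 the 8 microglial markers summed to 113 to 3101 RPKM in BNAP/GRP1 and 622 to 3302 in GRP2/MP3, against 22.7 to 74.9 in NSC, and the mature neuron markers to 53.1 to 117 and 32.7 to 93.4, against 18.1 to 37.3. In GRP2/MP3 the 6 pericyte markers summed to 448 to 7332 RPKM, against 3.44 to 112 in NSC, and 5 of the 6 rose with the replicate block. The 6 erythroid markers summed to 2754 to 26515 RPKM in GRP2/MP3 and 106 to 3719 in BNAP/GRP1, against 11.55 to 694 in NSC. Rbfox3, a nuclear protein gene of mature neurons, stood at 6.06, 11.2, 1.68 and 6.44 RPKM in NSC and at 11.3, 59.4, 0.877 and 26.1 in BNAP/GRP1. Of the mature neuron markers, Camk2a, Nefl, Nefm and Syt1 were listed at 0 in 1 or 2 libraries each. Their part in the results was not tested.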

How the data were processed

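RNA from 20 sorted pools (5 populations, 4 batches) was amplified by the authors with an aRNA kit and sequenced. Per the labels the processing used cutadapt 3.4, STAR 2.6.1 and Salmon 1.9.0 on GRCm38, and the authors deposited 1 table of RPKM values, whose totals differ between libraries. Absolute depth is not given, so that precision rests on the 4 libraries of a population. The labels tell them apart by batch alone, and the study describes its n of 4 as independent experiments. The p values measure the spread between such pools, which may be partly technical.

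RPKM values were tested as log2(RPKM + 1) with limma 3.58.1 (R 4.3.3; lmFit, eBayes with a trend), which gave 1 mean per population. Genes at 1 RPKM in at least 4 libraries entered (27614 of 45705), with Benjamini-Hochberg adjustment over all of them. Fold changes on this scale understate those of low genes. The count model of DESeq2 1.26.0, named per the labels, was not used, since these are not counts. In residuals, libraries of the same batch correlated at a median of 0.262 to 0.769 within the 4 batches and at -0.20 between batches, so batch pairs the libraries. The fits were checked on simulated data.

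Named genes were the 9; list genes past the threshold in either fit; the 2 most abundant genes of each list; and the nearest profiles. Some genes that this rule names are not reported here. The 9 genes and the lists were chosen with earlier results of these data known. Positions and overlaps are from GENCODE vM21, sequences from RefSeq.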

Additional observations from a re-analysis of the deposited data

Results flagged for a closer look

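Of 45 groups of 4 libraries (9 genes in 5 populations), 8 held a library whose gap to the nearest other exceeded Dixon's critical share of the group's range. That share is set for normal values, and RPKM values are skewed and the groups share libraries. The count of 8 therefore cannot be set against a chance rate. Sp8 gave 4 of them, all in batch 4, at 111 RPKM in NSC (next 0.415), 408 in GRP2/MP3 (next 6.75), 92.0 in GRP3 (next 1.14) and 256 in PFMP (next 2.15). NSC of batch 4 also stood apart for Sp9, at 7.12 RPKM (next 0.871), and for Dlx6, at 1.82 RPKM (next 0.287). Dlx2 in GRP2/MP3 of batch 2 stood at 161 RPKM (next 8.25). Dlx1 in GRP3 of batch 3 stood at 0.138 RPKM, below the next at 12.2.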

How the results depend on the processing

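The 45 log2 fold changes against NSC kept their direction and their side of 0.05 in 1169 of 1209 alternative values. The count of genes called stayed at 0 of 9 (9 of 9 among batches) except in 11 of 354 alternative counts. With library weights, whose fit stopped before its tolerance, it was 1 in BNAP/GRP1 (Sp9), 2 in GRP3 (Dcx and Gad1) and 1 for any difference among populations (Dcx). Without batch 3, with or without the replicate block, it was 1 (Dcx) in GRP3, in PFMP and in the progenitors together, and 1 (Sp8) among batches. The replicate block with median-of-ratios scaling, chosen after seeing the data, gave 1 in PFMP (Dcx). The replicate block itself left it at 0 and changed no other call on the 9 genes. Adjusted p values of Dcx ranged from 0.0169 to 1 in PFMP and from 0.00372 to 1 in GRP3 over the alternatives. The cause was not tested.

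Directions turned for 11 fold changes, 5 of them of Dlx2. The 11 values as reported ran up to 1.31 (Sp8 in GRP2/MP3). Without batch 2, Dlx2 was -0.74 in GRP2/MP3, -0.45 in GRP3 and -0.20 in the progenitors together. With a pseudocount of 0.1, with or without the block, Dlx2 was -0.083 and Dlx5 -0.0466 in GRP3. Without batch 1, Sp8 was -0.083 and Sp9 -0.0422 in GRP3. With library weights Dlx2 was -0.51 in PFMP. With 1 library left out in turn, Dlx2 ranged from -0.22 to 1.79 in BNAP/GRP1, -0.79 to 1.25 in GRP2/MP3, -0.50 to 1.17 in GRP3, -0.66 to 0.91 in PFMP and -0.27 to 1.14 together. Sp8 ranged from -0.49 to 2.91 in GRP2/MP3, -1.40 to 1.69 in GRP3 and -0.96 to 2.39 in PFMP, and in GRP3 Dlx6 from -0.025 to 0.63 and Sp9 from -0.0029 to 0.86. With any 1 library left out, the count called stayed at 0 for every comparison of populations and at 9 among batches. Absolute depth is not given, which limits what can be said of the 7 values listed at 0. For those of Dlx5, Dlx6 and Sp8, with reads recovered from the steps between values, 3 reads would be worth 0.00858 to 0.0331 RPKM. For those of Sp9 and Gad2 reads were not recovered, and no such limit is given.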
